A study of Homo sapiens with 3 samples.

Results

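The integrated stress response genes described here are GDF15, ATF4, DDIT3, ATF3, TRIB3, CHAC1, DDIT4, ASNS, PSAT1 and SESN2, 10 of the 50868 genes counted in each library. Each was found by its exact gene symbol and had a single row. The set was picked because GDF15 was lower and DDIT3 higher than the control in both knockdown libraries, so its values against the control are given as a description and no test is made of them. All 10 passed the filter on low counts, as did 17287 genes in all.

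NCI-H23, an established line of human lung adenocarcinoma cells, was transfected with siRNA against USP16 (2 libraries, numbered 1 and 2) or with control siRNA (1 library), and polyadenylated RNA was sequenced. The USP16 protein takes ubiquitin off histone H2A, and the design asks which transcripts differ when it is depleted. The labels give no time after transfection, and they do not say whether knockdown libraries 1 and 2 are different siRNAs or different cultures. Total counts were 13956382 and 15071179 in the knockdown libraries and 14007161 in the control. USP16 itself was at 7.69 and 15.8 CPM (counts relative to library size after TMM scaling) in the knockdown libraries and at 47.5 CPM in the control, 83.8% and 66.8% lower. All 7 epithelial markers were present in all libraries, with a summed level of 239 and 366 CPM in the knockdown libraries against 411 CPM in the control. KRT8 and KRT18 made up most of that sum, while EPCAM had 161 and 232 counts in the knockdown libraries against 38 in the control. The lung lineage markers SFTPC, SFTPB and SCGB1A1 had 0 counts in all 3 libraries. NKX2-1 had 4 and 10 counts in the knockdown libraries against 6 in the control, and NAPSA 20 and 9 against 20. Endothelial genes summed to 0.494 and 0.772 CPM in the knockdown libraries against 0.451 CPM in the control. Leukocyte genes, mostly CD68 and CD14, summed to 19.1 and 12.3 CPM against 12.7 CPM. The 5 fibroblast genes together were at 71.7 and 64.8 CPM in the knockdown libraries against 75.0 CPM in the control. Most of that was COL1A1, with 881 and 700 counts in the knockdown libraries against 918 in the control, while COL3A1 had 67 and 94 against 19 and LUM 26 and 140 against 20. The part of these differences in the values below was not tested.

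The integrated stress response starts when kinases that sense unfolded protein, amino acid shortage, viral RNA or heme deficiency phosphorylate the translation initiation factor eIF2. General translation then slows while the mRNA of the transcription factor ATF4 is translated more, so that ATF4 mRNA need not follow ATF4 protein. ATF4 and the factors it induces switch on genes for amino acid supply, for redox control, for braking the growth kinase complex mTORC1 and, under lasting stress, for cell death. GDF15 is a secreted cytokine of the TGF-beta superfamily that this response induces, and p53 and other factors induce it too.

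In the knockdown libraries GDF15 was far below the control, while most of the remaining genes were modestly above it. Of the 10 genes, 7 were higher in both knockdown libraries (ATF4, DDIT3, TRIB3, CHAC1, ASNS, PSAT1 and SESN2), where 33.4% of all genes tested were higher in both. GDF15 was lower in both, as were 33.5% of all genes tested. ATF3 and DDIT4 were lower in library 1 and higher in library 2. By size, GDF15 was at least 2-fold lower in both libraries (1.68% of all genes tested) and 0 of the 10 were at least 2-fold higher in both (3.75% of all genes tested). In library 2 alone DDIT3, TRIB3 and SESN2 were over 2-fold higher, and in library 1 none was. The median log2 change of the 10 genes was 0.35 in library 1 and 0.45 in library 2, beside 0.00 in each for all genes tested. Because the set was chosen on this contrast, these counts and medians carry no weight as evidence of a shared response. Fewer cells with a transcript and less of it per cell cannot be told apart in such bulk samples. The knockdown libraries share the single control, so an error in the control moves both of their changes the same way.

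**Figure D1:**
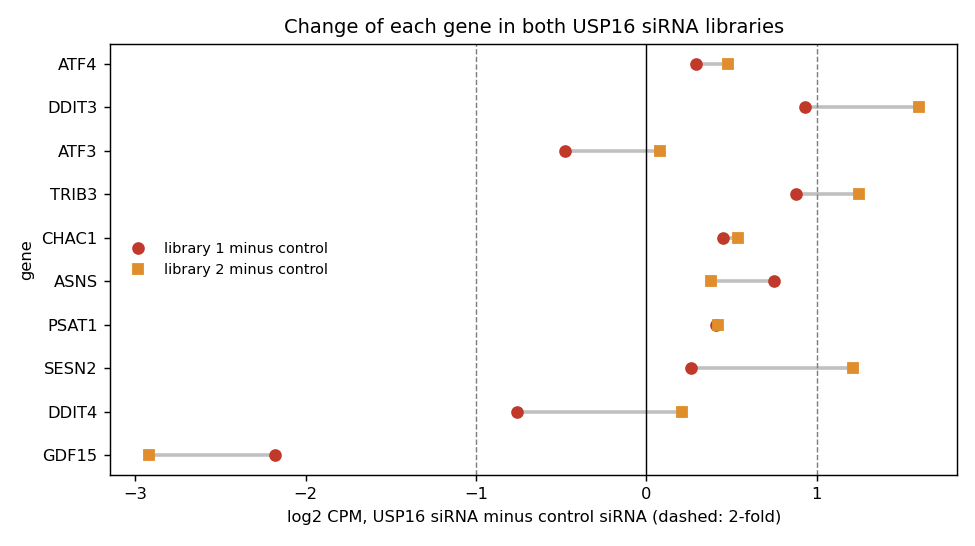
Change of each of the 10 genes, with genes down the page and the difference in log2 CPM between each USP16 siRNA library and the control library across it (circle, library 1; square, library 2; dashed lines, 2-fold). GDF15 lies at -2.18 and -2.92, ATF3 and DDIT4 straddle 0, and the other 7 genes lie to the right of 0 in both libraries.

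Among the transcription factors, ATF4, the central factor of the response, had 4331 and 5428 counts in the knockdown libraries against 3333 in the control. The knockdown libraries were at 306 CPM (exact Poisson 95% interval 297 to 315) and 349 CPM (340 to 358), and the control at 250.3 CPM (242 to 259). Intervals here and below cover counting error only and are no test against the control. Both knockdown libraries lay above the control for ATF4. The log2 changes were 0.29 and 0.48, small next to those of the factor it induces. DDIT3, which encodes CHOP, the proapoptotic factor downstream of ATF4, had 353 and 619 counts in the knockdown libraries and 173 in the control. Its level was 24.9 CPM (22.4 to 27.6) and 39.8 CPM (36.7 to 43.1) in the knockdown libraries against 13.0 CPM (11.1 to 15.1) in the control. Both knockdown libraries were above the control, library 2 the more so, with log2 changes of 0.93 and 1.60 and a mean of 1.27 ± 0.48 (SD, n = 2). This SD and those below leave out the variation of the lone control.

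ATF3, a stress-induced factor of the same bZIP class, did not share that direction. It had 87 and 142 counts in the knockdown libraries against 115 in the control, so the knockdown libraries lay on either side of the control. The log2 changes were -0.48 and 0.08. TRIB3, a pseudokinase that is induced by ATF4 and CHOP and restrains ATF4 in turn, had 352 and 499 counts in the knockdown libraries and 179 in the control. At 24.8 and 32.1 CPM in the knockdown libraries and 13.4 CPM in the control, TRIB3 came nearest to DDIT3 in size, with log2 changes of 0.88 and 1.25 (mean 1.06 ± 0.26, SD, n = 2).

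**Figure D2:**
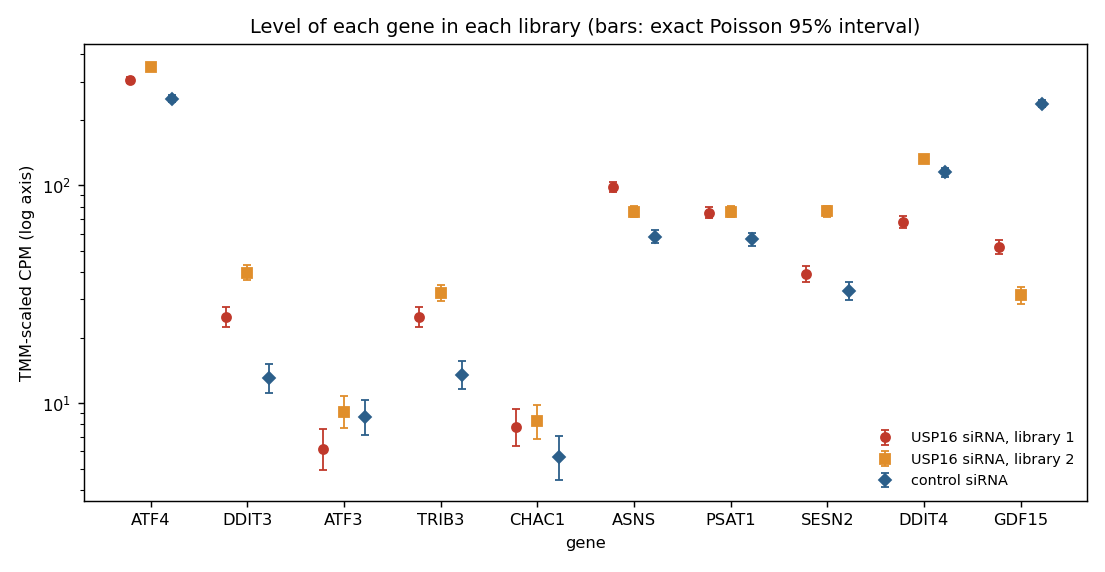
Level of each of the 10 genes in TMM-scaled CPM on a log axis, by library (red circle, USP16 siRNA library 1; orange square, USP16 siRNA library 2; blue diamond, control siRNA). Bars are exact Poisson 95% intervals, which cover counting error only; DDIT3 and TRIB3 stand above the control in both knockdown libraries and GDF15 below it.

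The enzyme genes among the 10 were all above the control in both knockdown libraries, by less than 2-fold. CHAC1, a glutathione-degrading enzyme and a sensitive ATF4 and CHOP target, had 110 and 128 counts in the knockdown libraries against 75 in the control. Its exact Poisson intervals of 6.38 to 9.35 and 6.87 to 9.79 CPM in the knockdown libraries overlapped that of the control, 4.43 to 7.06 CPM. Its ratios to the control were 1.38 (exact binomial 95% interval 1.02 to 1.87) and 1.46 (1.09 to 1.97), again with counting error only and not as a test. ASNS, asparagine synthetase, had 1390 and 1177 counts in the knockdown libraries against 775 in the control, which gave 98.1 and 75.7 CPM against 58.2 CPM. It was higher in library 1 than in library 2, with log2 changes of 0.75 and 0.38. PSAT1, the aminotransferase of serine synthesis, had 1062 and 1176 counts in the knockdown libraries and 752 in the control. The knockdown libraries held nearly the same scaled level, 74.9 and 75.6 CPM, above the 56.5 CPM of the control. The log2 changes of PSAT1 were 0.41 and 0.42, the closest match between libraries among the 10 genes.

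SESN2 and DDIT4, which both restrain mTORC1, differed from each other. SESN2, a leucine sensor that acts on mTORC1 through the GATOR complexes, had 558 and 1182 counts in the knockdown libraries against 436 in the control. The first knockdown library was only a little above the control and the second well above both, at 39.4 and 76.0 CPM against 32.7 CPM in the control. The log2 changes were 0.26 and 1.21 (mean 0.74 ± 0.67, SD, n = 2). DDIT4, which encodes REDD1 and acts through the TSC complex, had 961 and 2062 counts in the knockdown libraries against 1527 in the control. Its level of 67.8 CPM in library 1 was below and its level of 133 CPM in library 2 above the 115 CPM of the control, with log2 changes of -0.76 and 0.21.

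GDF15 had 742 and 487 counts in the knockdown libraries against 3163 in the control. The knockdown libraries were at 52.4 CPM (exact Poisson 95% interval 48.7 to 56.3) and 31.3 CPM (28.6 to 34.2), and the control was at 238 CPM (229 to 246). GDF15 was thus 78.0% and 86.8% lower, with log2 changes of -2.18 and -2.92 and a mean of -2.55 ± 0.52 (SD, n = 2). These changes rank at percentile 0.5 and 0.2 of all genes tested, while those of DDIT3 rank at 91.9 and 96.6 and those of TRIB3 at 91.0 and 93.5. Of the summed counts of all 10 genes, GDF15 made up 7.46% and 3.77% in the knockdown libraries against 30.0% in the control. The summed level of the 10 genes was 702 and 829 CPM in the knockdown libraries against 791 CPM in the control. Without GDF15 it was 649 and 798 CPM in the knockdown libraries against 553 CPM in the control.

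Levels can be set side by side between genes once divided by transcript length. In the control, GDF15 was the most abundant of the 10 at 198 CPM per kilobase of its longest annotated transcript, ahead of ATF4 at 124 and DDIT4 at 65.6 CPM per kilobase. PSAT1 (25.8), ASNS (24.7), DDIT3 (12.2), SESN2 (9.48), TRIB3 (5.38), ATF3 (4.11) and CHAC1 (3.05 CPM per kilobase) followed. In the knockdown libraries ATF4 came first, at 151 and 173 CPM per kilobase, and GDF15 was at rank 2 in library 1 with 43.6 and at rank 6 in library 2 with 26.1 CPM per kilobase. DDIT3 was at rank 6 in library 1 and at rank 3 in library 2, with 23.3 and 37.3 CPM per kilobase. GDF15 transcript per kilobase was 1.87 and 0.700 times that of DDIT3 in the knockdown libraries, against 16.3 times in the control. Neighbours in this order were close for PSAT1 and ASNS and for ATF3 and CHAC1, and ATF3 and CHAC1 changed places when length was taken as the union of exons. In the knockdown libraries that choice of length put GDF15 at ranks 4 and 7, PSAT1 at ranks 2 and 3, and DDIT3 at ranks 6 and 4, with ATF4 still at rank 1 in both. With a single control library the spread behind this order is not known.

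**Figure D3:**
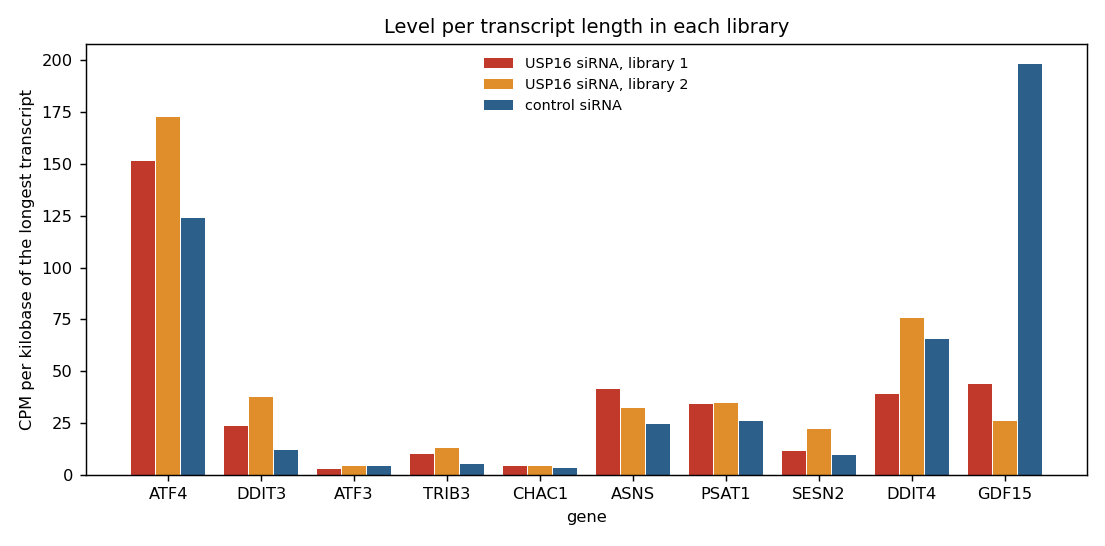
Level of each of the 10 genes in CPM per kilobase of the longest annotated transcript, as bars from 0, by library (red, USP16 siRNA library 1; orange, USP16 siRNA library 2; blue, control siRNA). GDF15 has the tallest control bar at 198 and ATF4 the tallest knockdown bars at 151 and 173.

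The knockdown libraries also differed from each other beyond counting error for 8 of the 10 genes. The share of all genes tested that did so was not counted, so this is not given as a trait of the 10. Such differences were general: over genes whose counts summed to 20 or more across the libraries compared, chi-square per degree of freedom was 62.5 between the knockdown libraries, beside 43.4 and 67.7 for libraries 1 and 2 against the control. The ratio of library 2 to library 1 was 1.95 for DDIT4 (exact binomial 95% interval 1.81 to 2.11), 1.93 for SESN2 (1.74 to 2.14) and 1.60 for DDIT3 (1.40 to 1.83). It was 0.598 for GDF15 (0.532 to 0.671) and 0.772 for ASNS (0.713 to 0.835). ATF4, ATF3 and TRIB3 were also higher in library 2, at ratios of 1.14, 1.49 and 1.29, whereas for CHAC1 (0.815 to 1.38) and PSAT1 (0.928 to 1.10) the interval held 1. These intervals leave out variation between cultures, which a single library of each kind cannot give. Residual USP16 in library 2 was 2.05 times that in library 1 (1.63 to 2.59).

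Short promoter stretches are shown for the genes in which a motif of the response or a core promoter motif was found, since the 10 genes did not move together. The C/EBP-ATF response element (CARE), the site bound by ATF4 with C/EBP partners, was searched as TGATGNAA and AP-1 as TGANTCA. The cyclic AMP response element was searched as TGACGTCA and the TATA box as TATAAA, each on both strands. No matches overlapped within a window. The windows were RefSeq's on build GRCh38.p14, from 250 bases before to 50 bases after each start site. All 10 genes matched, with 16 windows, of which those of the same gene can overlap. CARE letters lay in 3 of 16 windows (18.8%), those of ASNS, CHAC1 and ATF3, against 3.62% of all 35116 windows. Capitals mark the matched letters, read 5′ to 3′ along the gene's strand.
ASNS, chr7:97872458-97872487, minus strand, match 68 bases before the start site: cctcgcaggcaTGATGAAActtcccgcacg
CHAC1, chr15:40953251-40953280, plus strand, match 209 bases before the start site, reverse orientation: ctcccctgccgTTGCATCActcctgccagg
ATF3, chr1:212565205-212565234, plus strand, match 191 bases before the start site: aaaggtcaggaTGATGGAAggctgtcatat
DDIT3, chr12:57520738-57520764, minus strand, AP-1 letters 241 bases before the start site: gcgcgcgcaTGACTCAcccacctcctc
GDF15, chr19:18386118-18386145, plus strand, TATA box letters 29 bases before the start site: agtccggggacTATAAAggccggtccgg
ATF4, chr22:39520521-39520548, plus strand, TATA box letters 27 bases before the start site: gagacgaagtcTATAAAgggccggcggg

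Of the 3 genes with CARE letters, ASNS and CHAC1 were above the control in both knockdown libraries and ATF3 was not. DDIT3, TRIB3 and SESN2, which had the larger positive changes, had no such letters in these windows. Sequence beyond the windows was not searched, so an element farther from the start site would be missed. A link between CARE letters and the direction of change was not tested. AP-1 letters were in 7.71% of all windows and, among the 10 genes, in those of DDIT3, which hold the same match. TATA box letters were in 11.5% of all windows and in 4 of the 16 (25.0%), from GDF15, ATF4 and ATF3. The ATF4 windows hold the same match, and the ATF3 match lay 230 bases before the start site. GDF15 and ATF4 had these letters at nearly the same distance from the start site. Letters of the cyclic AMP response element, found in 1.85% of all windows, were in none of the 16. A match is a run of letters and not a measured binding site.

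Reads of overlapping genes are a limit for DDIT3 and ASNS. The use of strand in counting is not given in the sources used here, and strand does not part genes on the same strand. DDIT3, on chromosome 12 at 57516588 to 57521737 of hg38 on the minus strand, shares 355 exonic bases with the opposite-strand gene MARS, methionyl-tRNA synthetase, and 58 with MBD6. It also shares 105 exonic bases with AC022506.1 on its own strand, a gene with no row in the counts. MARS had 2570 and 1559 counts in the knockdown libraries against 1905 in the control, with log2 changes of 0.34 and -0.51. MBD6 was at 0.46 and 0.45. The part of reads from these overlapping genes in the DDIT3 values was not tested. ASNS shares 1985 exonic bases with the processed transcript AC079781.5 on its own strand. That gene has no row in the counts, and its part in the ASNS values was not tested. DDIT4 shares 847 exonic bases with the antisense RNA RP11-442H21.2, which had 0 counts in all 3 libraries. GDF15, on chromosome 19 at 18374731 to 18389176 on the plus strand, hosts the microRNA gene MIR3189 in an intron and shares no exonic base with another gene.

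The genes most like GDF15 and DDIT3 in their pattern were taken by the Euclidean distance between log2 changes in both knockdown libraries, over 3 libraries, within the 11236 genes that averaged 100 counts or more. Nearest to GDF15 were SCUBE3 (85 and 40 counts in the knockdown libraries against 280 in the control, distance 0.395), FAM101B (373 and 198 against 1183, distance 0.448), BAHCC1 (distance 0.762) and PARVB (distance 0.862). None of the 10 stress genes was among them, which follows from GDF15 being the only one of the 10 lower in both libraries. Nearest to DDIT3 were TMEM141 (174 and 307 counts in the knockdown libraries against 86 in the control, distance 0.0237), BMS1 (3079 and 5240 against 1510, distance 0.0354), PIBF1 (distance 0.0845) and IFT52 (distance 0.0854). Distances to the nearest genes were larger around GDF15, at percentiles 0.5 and 0.2 of all changes, than around DDIT3, at 91.9 and 96.6. GDF15 thus lay nearer the edge of all changes, and the larger distances are not given as a trait of it.

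**Figure D4:**
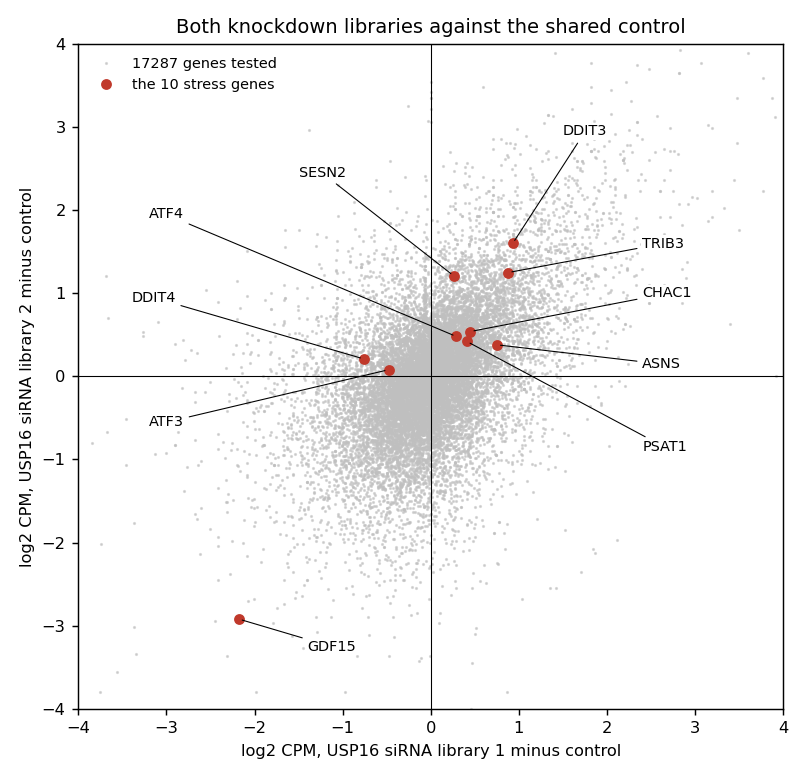
Difference in log2 CPM from the shared control in USP16 siRNA library 2 (vertical) against library 1 (horizontal) for 17287 genes tested (grey) and the 10 stress genes (red), with 32 genes outside the axes. GDF15 lies at the lower left edge of the cloud and DDIT3 and TRIB3 in the upper right, while a tilt of the whole cloud is built in by the shared control.

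The rest of the response was followed in 12 lists of other genes, 177 distinct genes past the filter. None passed an adjusted p of 0.05 in edgeR's quasi-likelihood test over all genes, where 0.0% of all genes tested were called higher and 0.0174% lower. With 1 residual degree of freedom and a lone control the test has little power, so a lack of calls does not mean no change. The smallest adjusted p was 0.879, for CDKN1A, and 6 of the 177 (3.39%) had an unadjusted p under 0.05, where 4.88% of all genes tested did. DESeq2 called 0 of the 177 as well, with 4 (2.26%) at an unadjusted p under 0.05, beside 2.97% of all genes tested. Over all 177 genes, 54 (30.5%) were higher and 61 (34.5%) lower in both knockdown libraries and 62 opposite in sign. Of all genes tested, 33.4% were higher and 33.5% lower in both, and each list below is to be read beside these shares. The medians of the 177 genes were -0.01 and -0.06, close to the 0.00 of all genes tested. The lists were chosen with earlier results known and the control is shared, so counts per list are a description only.

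Upstream of ATF4, 5 of 20 genes of eIF2 and its kinases (25.0%) were higher and 8 (40.0%) lower in both knockdown libraries. The shares over all genes tested were 33.4% and 33.5%. Medians of these 20 genes were -0.13 and -0.07. The largest mean changes belonged to DNAJC3, an inhibitor of eIF2 kinases (-1.27 and -0.42), and to the eIF2 subunits EIF2S1 (-1.54 and 0.14) and EIF2S2 (-0.12 and -1.30). These subunits were each low in a different library. Of 23 bZIP factors outside the 10 genes, 10 (43.5%) were higher and 7 (30.4%) lower in both, with medians of 0.13 and -0.07. CEBPB, a partner of ATF4, had 1065 and 1768 counts in the knockdown libraries against 2077 in the control (-1.05 and -0.46). CEBPA had 67 and 87 counts in the knockdown libraries against 162 in the control (-1.34 and -1.10), and JUNB was at -1.11 and -0.53.

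The listed aminoacyl-tRNA synthetase genes, a part of that family, and the tRNA exporter XPOT are also induced by ATF4. Of these 13 genes, 10 (76.9%) were higher in both knockdown libraries and 0 lower in both. Of all genes tested, 33.4% were higher and 33.5% lower in both. The medians of the list were 0.23 and 0.22. LARS, the leucyl enzyme, had 5836 and 5263 counts in the knockdown libraries against 2866 in the control (0.94 and 0.65), and CARS and EPRS were at 0.78 and 0.47, and at 0.28 and 0.61. Enzymes of amino acid synthesis and one-carbon metabolism had medians of 0.24 and 0.14, with 7 of 14 higher and 2 lower in both. CTH, which makes cysteine, had 153 and 700 counts in the knockdown libraries against 103 in the control (0.47 and 2.52), while SHMT2 was at 0.55 and -1.36 and ALDH18A1 at 0.22 and 0.54. Amino acid transporters did not share one direction, with 2 of 12 higher and 4 lower in both and medians of -0.16 and -0.06. The cystine carrier SLC7A11 had 1352 and 309 counts in the knockdown libraries against 332 in the control (1.93 and -0.33), SLC3A2 was at 0.73 and 0.35, and SLC7A1 at 0.05 and -1.11.

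Other stress effectors, which include targets of ATF4, CHOP and further factors, had 3 of 18 higher and 7 lower in both, with medians of -0.48 and -0.09. The largest changes were those of HMOX1, the heme oxygenase (-0.73 and -2.64), the death receptor gene TNFRSF10B, a CHOP and p53 target (-1.81 and -0.32), and NDRG1 (-1.48 and -0.59). NUPR1 had 7 and 2 counts in the knockdown libraries and 0 in the control, and FGF21, another secreted stress cytokine, had 0 and 2 in the knockdown libraries and 0 in the control. ER chaperone genes of the unfolded protein response had medians of 0.29 and -0.01, with 3 of 13 higher and 0 lower in both. CRELD2 was at 0.96 and 0.65, CALR at 0.75 and 0.11 and DNAJB9 at -0.08 and 0.82.

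The p53 targets, a class to which GDF15 and SESN2 also belong, were lower in both knockdown libraries for 11 of 22 genes and higher in both for 4, with medians of -0.38 and -0.05. CDKN1A, the gene of the p21 cell cycle inhibitor, was at -1.98 and -0.95, and TP53I3 had 203 and 241 counts in the knockdown libraries against 467 in the control (-1.28 and -1.17). Components of mTORC1 and its amino acid sensing had 13 of 25 lower and 5 higher in both, with medians of -0.10 and -0.23. LAMTOR4, of the lysosomal anchor, was at 0.79 and 0.95, NPRL3, of the GATOR complex that restrains mTORC1, at 0.53 and 0.87, and TBC1D7, of the TSC complex, at -0.89 and -0.38. Glutathione enzymes were lower in both for 5 of 9 genes and higher in both for 2, with medians of -0.33 and -0.43, among them GPX4 (-0.54 and -0.86), GSR (-0.37 and -1.03) and GGCT (-0.36 and -0.72).

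GFRAL, the receptor of GDF15 in the brainstem, had 0 counts in all 3 libraries. Of the 6 measured genes for its coreceptor and for proteases of precursor processing and shedding, 3 were higher and 1 lower in both, with medians of 0.25 and -0.38. FURIN, which cleaves precursors of this superfamily, had 1146 and 1225 counts in the knockdown libraries against 1869 in the control (-0.79 and -0.83), PCSK6 was at 0.76 and 0.16, and MMP14 at 0.14 and -1.46. Relatives of the 10 genes were lower in both knockdown libraries for 5 of 8 (62.5%) and higher in both for 1 (12.5%). Over all genes tested these shares were 33.5% and 33.4%. The medians of the relatives were -0.36 and -0.42. TRIB1, at -0.58 and -0.77, had the opposite sign to TRIB3, and the asparagine synthetase relative ASNSD1 was at -0.21 and -2.09, where ASNS was at 0.75 and 0.38. ATF5 was at 0.21 and -0.82.

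**Figure D5:**
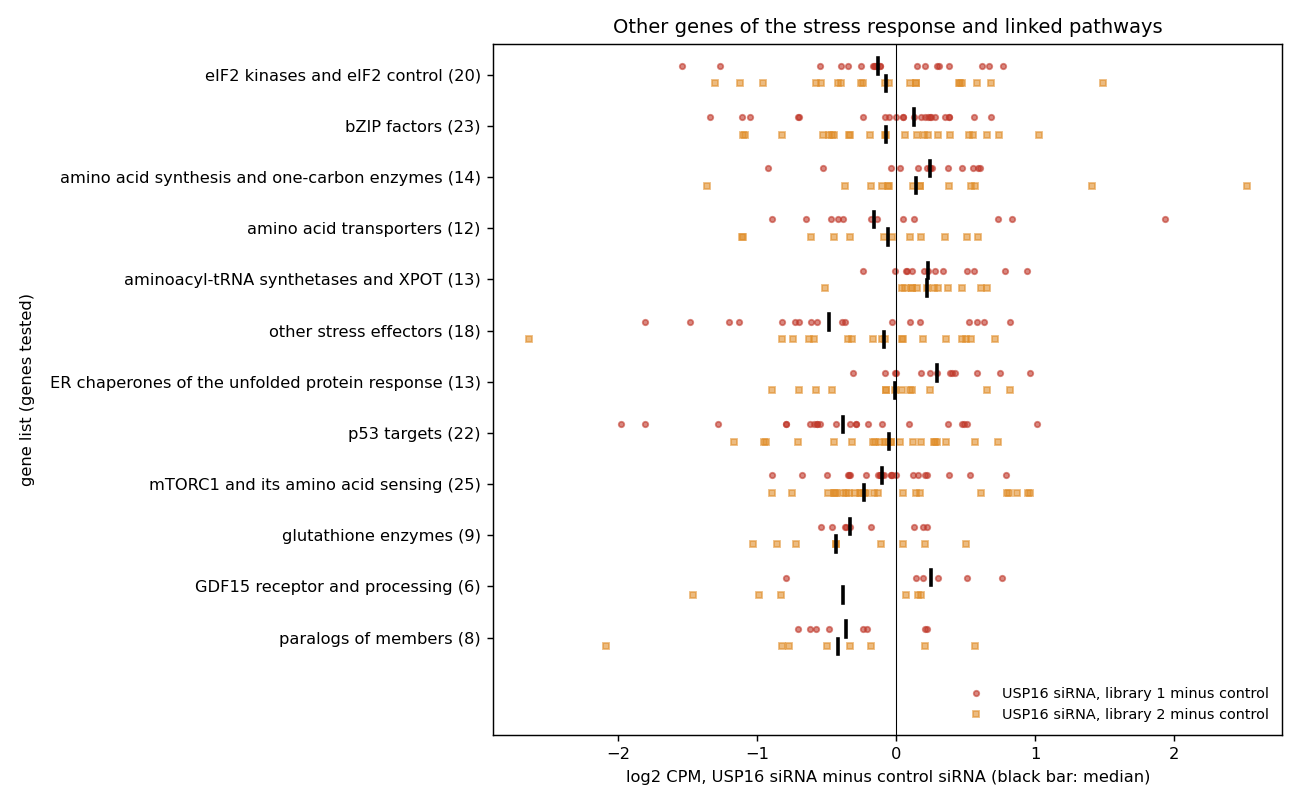
Difference in log2 CPM from the control for every tested gene of the 12 lists, in USP16 siRNA library 1 (red circles) and library 2 (orange squares), with medians as black bars and the number of genes tested in brackets. Medians of the aminoacyl-tRNA synthetase list lie at 0.23 and 0.22, those of the relatives of the 10 genes at -0.36 and -0.42, and single genes spread on both sides of 0 in every list.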

How the data were processed

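The deposited files give whole-number counts of reads per Ensembl gene, 1 file per library, without normalization. HISAT2 2.0.4, StringTie 1.3.0 and build hg38 are named, with no role, per the submitters' processing notes. How reads were counted, with or without strand and on which annotation, is not given in the sources used here. Libraries were made with an mRNA kit, per the labels' protocols. The second knockdown file's column header carries another number than its label, and the sample was used as labelled. No pair of libraries held identical values.

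Genes were filtered with filterByExpr, scaled by TMM (factors 1.02 and 1.03 in the knockdown libraries, 0.952 in the control) and tested with edgeR 4.0.16 in R 4.3.3 (quasi-likelihood F-test, Benjamini-Hochberg over 17287 genes, threshold 0.05). There was 1 residual degree of freedom, the control being assumed to vary like the knockdown libraries, so p-values speak only for the spread among these libraries, possibly a technical one. Log2 changes are differences of log2 CPM with a prior count of 2. Intervals are at 95% and cover counting error only. Positions and lengths came from GENCODE release 29, on the same build. The members and lists were chosen with earlier results of these data known. Named from each list were the 3 genes with the largest mean change among those with a mean of at least 100 counts. Overlapping genes, the 4 nearest patterns to GDF15 and DDIT3 and USP16 were named too. DESeq2 1.42.0 and other filters, scalings and prior counts were tried as alternatives.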

Additional observations from a re-analysis of the deposited data

How the results depend on the processing

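The log2 changes of the 10 genes and USP16 kept their sign under other filters, size factors and a prior count of 10, with GDF15 between -2.56 and -2.51 and DDIT3 between 1.23 and 1.31. PSAT1 was at 0.45 with a minimum mean of 100 counts. Leaving out a knockdown library gave -2.91 to -2.18 for GDF15, 0.93 to 1.61 for DDIT3, 0.26 to 1.22 for SESN2, -0.48 to 0.08 for ATF3 and -0.76 to 0.21 for DDIT4. It left no test, and the number of the 10 genes 2-fold higher was 0 to 3, the 3 being DDIT3, TRIB3 and SESN2 in library 2. Over all genes, 2-fold higher counts were then 1079 to 1620 and 2-fold lower counts 848 to 1469, since only 1 library had to pass.

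Of all genes, 649 were 2-fold higher and 290 2-fold lower in both libraries, against 1071 and 673 without filtering, 170 and 91 with a minimum mean of 100 counts and 286 and 178 with a prior count of 10. edgeR called 3 genes, against 70 with no filter, 1 with the minimum mean and 14 with DESeq2, and none of these calls was a gene of the 12 lists. With the minimum mean, which removes genes, the transporter median turned from -0.13 to 0.13 and that of all lists from -0.02 to 0.03. Other medians moved with no filter (synthetases 0.21, relatives of the 10 genes -0.50), with the minimum mean (0.26 and -0.26) and with a prior count of 10 (relatives -0.36). The median of the other stress effectors was -0.11 with no filter, against -0.22. That of GDF15 receptor and processing genes was -0.20 with the minimum mean and 0.03 with a prior count of 10, against -0.03. Without a knockdown library, medians took both signs for GDF15 receptor and processing genes (-0.38 to 0.25), ER chaperones (-0.01 to 0.29) and bZIP factors (-0.07 to 0.13). They ranged from -0.48 to -0.09 for other stress effectors, -0.38 to -0.05 for p53 targets, -0.13 to -0.06 for eIF2 control, -0.16 to -0.06 for transporters and -0.42 to -0.33 for glutathione enzymes. No paired analysis was possible because the 1 control library is shared by both knockdown libraries.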
